A study of Mus musculus with 4 samples.

Results

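The genes of 8 inhibitory and checkpoint receptors outside the CD226 family were followed in cultured lung group 2 innate lymphoid cells (ILC2s). The set was Pdcd1, Ctla4, Cd274, Klrg1, Lair1, Lilrb4a, Vsir and Cd200r1. They were chosen by name from the gene columns of the deposited table of normalised counts, and all 8 were found among its 17187 genes. The rule that names them uses no expression value, although earlier results of these data were known. ILC2s lack antigen receptors and are a tissue-resident source of IL-5 and IL-13. The cells were sorted from BALB/c lungs, and the series' design text calls the mice wild type. The labels' protocols give a culture of 18 hours in the presence of either isotype control (2 libraries) or anti-CD226 (2 libraries), which binds a costimulatory receptor. A dose of 5 µg/mL is stated after the CD226 antibody, and whether it also holds for isotype control is not clear from the wording. The design text speaks instead of treated mice, and controls are named PBS in the deposited table, whereas the sample labels used here name isotype control. Whether a group's 2 libraries derive from different mice or cultures is not stated, so each p-value reflects the spread between libraries, which may be technical. Low-input libraries were made from 10 pg of RNA, per the labels' protocols.

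Inhibitory receptors set the threshold at which a lymphocyte responds. PD-1 (Pdcd1), KLRG1, LAIR-1 and LILRB4 carry short tyrosine motifs in their tails that recruit phosphatases such as SHP-1, SHP-2 or, for KLRG1, SHP-2 and the lipid phosphatase SHIP-1, whereas CD200R1 recruits the adaptors DOK1 and DOK2 to restrain RAS signalling. CTLA-4 competes with CD28 for CD80 and CD86. PD-L1 (Cd274) acts both as the ligand of PD-1 and as a surface molecule of the ILC2 itself, and VISTA (Vsir) can act as a receptor or as a ligand. KLRG1 marks mature ILC2s, and PD-1 is known to restrain activated ILC2s.

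Lilrb4a shares long stretches of sequence with its neighbours, so these sequences are shown first. Lilrb4a lies on the plus strand of chromosome 10, from 51490956 to 51496611 (GRCm38, GENCODE M21). Its neighbour Lilr4b, which encodes the related receptor without inhibitory tail motifs, lies upstream from 51480632 to 51486703. The annotated gene Gm49339 spans both, from 51480612 to 51496613, and its exons cover 96.1% of the coding bases of Lilrb4a. The longest coding sequences of Lilrb4a and Lilr4b have 1008 and 912 bases and were identical at 874 of 910 aligned positions (96.0%). The longest stretch without a difference, bases 302 to 427 of the Lilrb4a coding sequence, is shown because a read that lies within it holds no base that separates the genes:
Lilrb4a and Lilr4b, shared 126 bases: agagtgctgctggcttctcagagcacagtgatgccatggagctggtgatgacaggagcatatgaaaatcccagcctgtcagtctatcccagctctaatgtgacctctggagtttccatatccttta

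The coding sequences also part at their 3′ ends, because that of Lilr4b stops earlier. Capitals mark the 98 bases of Lilrb4a that lie past the end of the Lilr4b coding sequence, a stretch that belongs to the tail of the inhibitory receptor. Lilr4b sequence after its stop was not compared, so whether these bases separate reads of the genes was not tested. The first line gives bases 861 to 1008 and the next bases 861 to 912, each 5′ to 3′:
Lilrb4a: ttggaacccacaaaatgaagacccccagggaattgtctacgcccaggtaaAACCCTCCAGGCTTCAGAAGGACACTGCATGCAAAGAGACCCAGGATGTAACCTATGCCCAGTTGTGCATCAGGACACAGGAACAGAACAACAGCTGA
Lilr4b: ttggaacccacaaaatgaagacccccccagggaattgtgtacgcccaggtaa

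RefSeq promoters (GRCm38.p6) were found for 5 of the 8 genes. Those of Pdcd1, Lair1 and Cd274 are shown because these genes, described below, had groups that did not overlap. Each line gives the 250 bases before the annotated start, and capitals mark matches to any of 7 motifs searched on both strands. The letters searched for GATA were AGATAA and those for AP-1 were TGANTCA. The NFAT letters were GGAAAA and the GC box letters were GGGCGG. The STAT element GAS was searched as TTCNNNGAA, the interferon element as GAAA repeated after any 2 bases, and the TATA box as TATAAA. No 2 of the matches shown overlap.
Pdcd1, chr1:94052554-94052803, minus strand: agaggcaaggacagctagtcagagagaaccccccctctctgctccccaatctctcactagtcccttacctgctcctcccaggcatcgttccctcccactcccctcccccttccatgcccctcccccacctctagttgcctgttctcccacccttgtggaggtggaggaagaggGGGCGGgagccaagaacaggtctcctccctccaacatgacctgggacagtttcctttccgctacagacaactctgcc
Lair1, chr7:4063205-4063454, minus strand: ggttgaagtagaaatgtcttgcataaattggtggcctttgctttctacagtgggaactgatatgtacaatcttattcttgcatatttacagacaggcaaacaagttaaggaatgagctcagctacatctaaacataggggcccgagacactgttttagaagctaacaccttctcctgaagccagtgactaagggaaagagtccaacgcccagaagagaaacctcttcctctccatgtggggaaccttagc
Cd274, chr19:29367188-29367437, plus strand: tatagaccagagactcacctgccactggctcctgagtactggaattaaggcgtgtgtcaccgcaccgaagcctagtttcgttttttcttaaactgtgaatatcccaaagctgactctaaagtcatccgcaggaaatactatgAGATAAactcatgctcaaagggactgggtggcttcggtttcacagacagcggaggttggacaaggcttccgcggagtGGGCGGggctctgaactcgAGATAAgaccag

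The Cd274 window held GATA letters at 2 places, 108 and 12 bases before the start counted to the first letter of each, and 9.99% of the 32851 promoters of the same length held at least 1. The GC box letters were in the windows of Pdcd1 and Cd274 and in 32.7% of all promoters. Of the promoters found but not shown, that of Vsir also held the GC box letters and that of Ctla4 the NFAT letters. The Lair1 window held none of the 7 motifs, which says only that these letters are not in this window. The other shares of promoters with a match were 6.75% for AP-1, 20.4% for NFAT, 7.02% for GAS, 2.98% for the interferon element and 12.4% for TATA.

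Depth, estimated from the value that 1 read takes in each library, was between 12433714 and 17847309 reads, and the libraries' total signal differed by at most 1.01-fold. One read was worth between 0.773 and 1.11 normalised reads. Of the 32 values of the 8 genes, 25 were whole reads within 0.02 of a read. The others were 3 of the 4 values of Cd274, which lay just outside that tolerance, and all 4 of Lilrb4a, which lay farther from a whole read. Counting intervals below are exact 95% Poisson intervals on the rounded reads, and they cover counting error only, since amplified reads do not each stand for a molecule. The ILC2 genes Gata3 and Il1rl1 were present in every library, at 13811 or more and 8220 or more. The antibody's target Cd226 stood at 942 and 1042 with isotype against 1001 and 985 with anti-CD226.

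The 8 receptors comprised 4 abundant and 4 scarce genes. Levels between genes were compared as normalised reads per kb of annotated exon, over the 4 libraries. Klrg1 was highest with a mean level of 2036 ± 378 per kb (SD, n = 4 libraries), followed by Pdcd1 with 1592 ± 193, Cd200r1 with 625 ± 49.2 and Lilrb4a with 284 ± 86.9. The scarce genes were Cd274 with 36.7 ± 2.44, Vsir with 14.4 ± 2.08, Lair1 with 12.1 ± 1.56 and Ctla4 with 10.1 ± 5.21. Among the 16762 genes with an annotated length, 1.94% stood above Klrg1, 2.75% above Pdcd1, 7.93% above Cd200r1 and 16.7% above Lilrb4a. Cd274 had 52.2% of genes above it and Ctla4 68.3%, so the scarce members lay in the lower part of the genes listed.

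The order had 1 wide gap, 7.73-fold between Lilrb4a and Cd274. Klrg1 overlapped Pdcd1 across libraries, Vsir overlapped Lair1, and Lair1 overlapped Ctla4, so these neighbours were not separated beyond their spread. Klrg1 was 202-fold above Ctla4. The level of Lilrb4a rests on the length used, since its 14 annotated transcripts together cover 5227 bases, whereas the longest coding one has 1381. Per kb of the longest coding transcript, Lilrb4a stood at 1075 ± 329, beside Cd200r1 at 1105 ± 87.0, and the 2 overlapped.

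**Figure D1:**
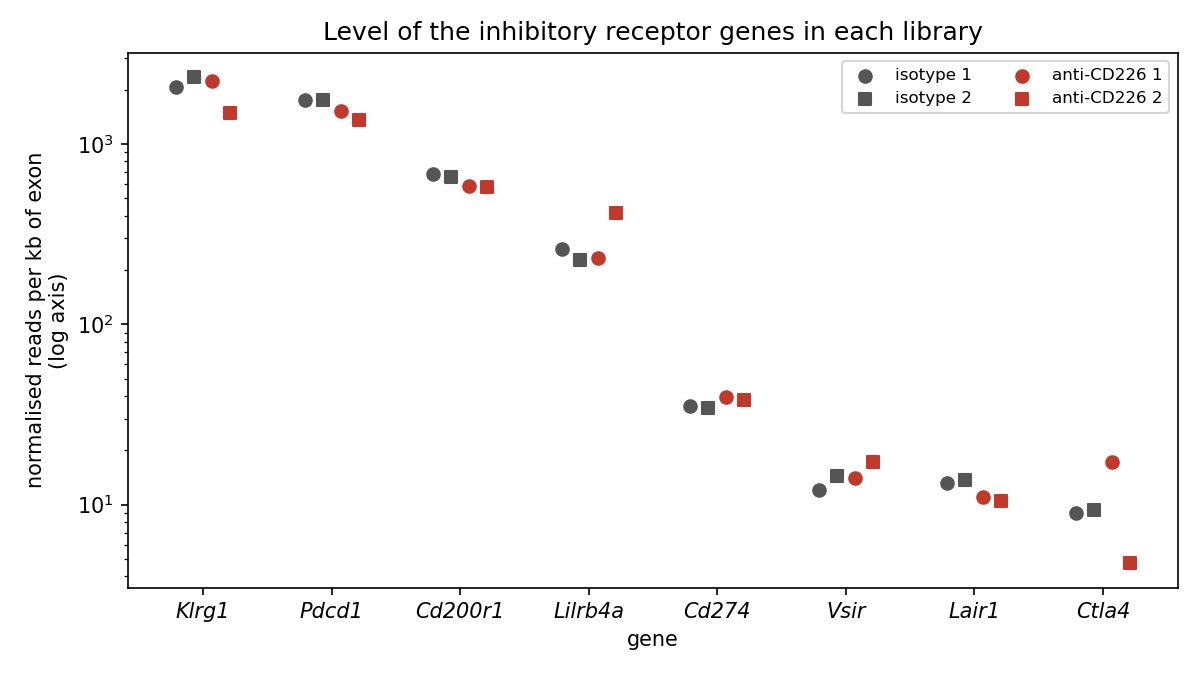
Level of each of the 8 genes in normalised reads per kb of exon (log axis), with isotype libraries in grey, anti-CD226 libraries in red, circles for replicate 1 and squares for replicate 2. Klrg1, Pdcd1, Cd200r1 and Lilrb4a lie at 227 per kb or more in every library, and Cd274, Vsir, Lair1 and Ctla4 reach at most 39.5.

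None of the 8 receptor genes passed the test between anti-CD226 and isotype. The test was limma on log2(value + 1), two-sided, with Benjamini-Hochberg adjustment over the 13010 genes whose mean value was 10 or more, and all 8 members were among them. Across all 13010 genes the percentage called at an adjusted p of 0.05 was 0, and at an unadjusted p below 0.05 it was 2.37%, with 0 of the 8 members among these. The means of the groups differed by 1.5-fold or more in 0 of the 8 and in 7.46% of all genes. Of the 8, 3 had higher and 5 lower values in anti-CD226 libraries, and the median log2 difference was -0.10 beside 0.01 over all genes tested. The groups did not overlap in 4 members, beside 26.8% of all genes. In 3 members both anti-CD226 libraries were below both isotype libraries, beside 13.0% of all genes, and in 1 member both were above, beside 13.8%. With 8 genes these counts are descriptions.

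Pdcd1, which encodes PD-1, was lower in both anti-CD226 libraries. Its values were 3366 and 3379 under isotype, compared with 2939 and 2603 under anti-CD226. The isotype libraries nearly coincided and the anti-CD226 libraries stood apart from them and from each other. The counting intervals, 3248 to 3488 and 3279 to 3480 in isotype against 2833 to 3049 and 2499 to 2710 in anti-CD226 libraries, did not overlap between groups. Means were 3372 ± 9.0 and 2771 ± 238 (SD, n = 2), a ratio of 0.822, and the log2 difference of -0.29 had a standard error of 0.16 (adjusted p of 0.982, limma). Its 95% interval ran from -0.66 to 0.09, so a fall to below 0.634 of the isotype level or a rise above 1.06 times lay outside it. Pdcd1 ranked 860th of 13010 genes by p, the smallest among the 8 members. Without anti-CD226 replicate 2 the log2 difference was -0.20, and without anti-CD226 replicate 1 it was -0.37. After removal of the trend of each library along transcript length it was -0.21. Pdcd1 lies on the minus strand of chromosome 1, from 94038305 to 94052553.

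The genes of both PD-1 ligands had higher means with anti-CD226, by less than their error. Cd274 lies on the plus strand of chromosome 19, from 29367455 to 29388095. It stood at 127 and 124 (isotype) and 143 and 138 (anti-CD226). Both anti-CD226 libraries were higher, but the counting intervals of all 4 libraries overlapped, from 105 to 153 in isotype replicate 1 and from 115 to 164 in anti-CD226 replicate 2. Its log2 difference, 0.16, had a standard error of 0.21, an interval from -0.34 to 0.65 and, in limma, an adjusted p of 0.982. Pdcd1lg2, the gene of PD-L2, the other ligand, stood at 46.4 and 64.9 with isotype against 57.7 and 65.0 with anti-CD226, and the groups overlapped. Cmtm6, which keeps PD-L1 at the cell surface, had 7205 and 6068 under isotype, compared with 6444 and 7950 under anti-CD226.

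Ctla4 was barely expressed, and its comparison rests on few reads. Its values of 21 and 21.6 (isotype) and 40.2 and 11.0 (anti-CD226) correspond to 19, 28, 39 and 10 reads. The anti-CD226 libraries stood on either side of the isotype libraries, replicate 1 highest and replicate 2 lowest. The anti-CD226 mean was 1.20 times the isotype mean, whereas the log2 difference, -0.0046, had a standard error of 0.61, so the ratio of means and the fitted difference differed in sign. The interval ran from -1.42 to 1.41, the widest of the 8. Without anti-CD226 replicate 2 the log2 difference was 0.88, and without anti-CD226 replicate 1 it was -0.89 (limma, adjusted p of 0.337 or more in every alternative). Foxp3, the factor of regulatory T cells, which express CTLA-4, stood at 19.9 and 11.5 with isotype against 12.9 and 36.0 with anti-CD226. The sum of T cell markers, given below and mostly Trbc1 and Trbc2, was by contrast lowest in anti-CD226 replicate 2, at 2505. Cd3e, a marker on that list named after its values were seen, was highest there, at 79.4. The part of T cells in the Ctla4 value was not tested. Ctla4 lies on the plus strand of chromosome 1, from 60887000 to 60915832. The pseudogene Rpl18-ps1 lies within its bounds on the same strand, shares no exon base with it and had values between 120 and 153.

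Cd80, which encodes a B7 molecule bound by CTLA-4 and CD28, was scarce as well. It stood at 18.8 and 18.5 under isotype, compared with 2.06 and 7.72 under anti-CD226, the only gene with an unadjusted p below 0.05 among the 13 ligands and partners tested (limma, log2 difference -1.93, standard error 0.73, unadjusted p = 0.030, adjusted p = 0.982). Its anti-CD226 value in replicate 1 lies below the floor of 3 reads, 3.09. Cd28 stood between 15.4 and 20.9 in all 4 libraries. Of the other ligands and partners named by rank, Itgav stood between 850 and 1436 and Icosl between 176 and 228, and both overlapped between groups. Icos, a costimulatory relative of CD28, was by contrast abundant, at 7859 and 8471 (isotype) and 8749 and 8625 (anti-CD226).

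Klrg1 was low in a single anti-CD226 library. This lectin-like receptor for cadherins lies on the minus strand of chromosome 6, from 122270596 to 122282882. It had 2939 and 3307 with isotype against 3158 and 2110 with anti-CD226. Anti-CD226 replicate 1 lay between the isotype libraries and replicate 2 stood below all others. The log2 difference, -0.27, had a standard error of 0.22, and the adjusted p in limma was 0.982. Without anti-CD226 replicate 2 it was 0.018, a change of sign, and without anti-CD226 replicate 1 it was -0.56 with an adjusted p of 0.0228 in limma, where the single remaining library is taken to vary as isotype does. That fit called 12.6% of all genes tested. Klrg1 has the shortest annotated exon length of the 8 genes, 1414 bases, and after removal of the trend of each library along transcript length its log2 difference was -0.15. The part of that trend in the result was not tested further. Of its ligands, N-cadherin, Cdh2, stood between 162 and 189, and E-cadherin, Cdh1, had a mean below 10 and was not tested.

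Cd200r1, the receptor of CD200, gave tight groups in both conditions. Cd200r1 lies on the plus strand of chromosome 16, from 44765736 to 44794978. Its values were 2265 and 2197 under isotype, compared with 1965 and 1936 under anti-CD226. Both anti-CD226 libraries were lower, and the SDs of 48.1 and 20.51 were small beside the difference of the means, 2231 and 1951, a ratio of 0.874. The log2 difference, -0.19, had a standard error of 0.16, with an adjusted p of 0.982 in limma. Its interval from -0.56 to 0.17 does not reach a fall to below 0.679 of the isotype level. The standard error in the fit is taken mostly from genes of like abundance and not from the spread of this gene. The log2 difference was between -0.23 and -0.17 in all 16 alternatives run. Its ligand Cd200 was at or below 4.12 in every library. Of its activating relatives, Cd200r4 stood at 112 and 102 (isotype) and 126 and 170 (anti-CD226) (limma, log2 difference 0.45, standard error 0.24, adjusted p = 0.982), Cd200r3 was between 15.4 and 21.6, and Cd200r2 had a mean below 10. Cd200r1 and Cd200r4 thus differed in direction within 1 gene cluster of chromosome 16, and the difference between them was not tested.

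Lair1, a receptor for collagens, was lower in both anti-CD226 libraries at a low level. Lair1 lies on the minus strand of chromosome 7, from 4003402 to 4063204. Its values were 98.4 and 102 with isotype against 82.4 and 78.3 with anti-CD226. The groups did not overlap, but the counting intervals did, from 79.0 to 121 in isotype replicate 1 and from 65.3 to 103 in anti-CD226 replicate 1. The log2 difference, -0.32, was the lowest of the 8 and had a standard error of 0.24 (adjusted p of 0.982, limma). Lair1 has the longest annotated exon length of the members, 7475 bases, and with the length trend removed its log2 difference was -0.48. Of the collagen genes on the list of ligands, Col1a1 and Col4a1 were at or below 9.95 in every library.

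Lilrb4a was high in a single anti-CD226 library. It stood at 1372 and 1189 under isotype, compared with 1222 and 2155 under anti-CD226. Anti-CD226 replicate 1 lay between the isotype libraries and replicate 2 far above all others, the mirror image of Klrg1. Its log2 difference, 0.35, had a standard error of 0.27, and the adjusted p in limma was 0.982. It was -0.063 without anti-CD226 replicate 2, and 0.75 without anti-CD226 replicate 1 with an adjusted p of 0.0030 in limma, again with the single library taken to vary as isotype does and with 12.6% of all genes called. The sum of macrophage and monocyte markers without Ccr2, described below, was also highest in anti-CD226 replicate 2, mostly through Chil3 and Mmp12. The part of these markers in the Lilrb4a value was not tested. Lilr4b was also highest in anti-CD226 replicate 2, at 1518 and 1563 (isotype) and 1435 and 2521 (anti-CD226), but its anti-CD226 replicate 1 lay below both isotype libraries. The ratio of Lilrb4a to Lilr4b was 0.904 and 0.761 with isotype against 0.852 and 0.855 with anti-CD226. With the shared stretches printed above, a change of both genes and a change of 1 whose reads are divided between them cannot be told apart. Gm49339 went another way, at 800 and 741 under isotype, compared with 645 and 643 under anti-CD226. Its share of the summed value of the 3 genes was 21.7% and 21.2% in isotype, against 19.5% and 12.1% with anti-CD226. Gm49339 had a log2 difference of -0.26 and Lilr4b of 0.30 (limma, adjusted p = 0.982 for each).

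**Figure D2:**
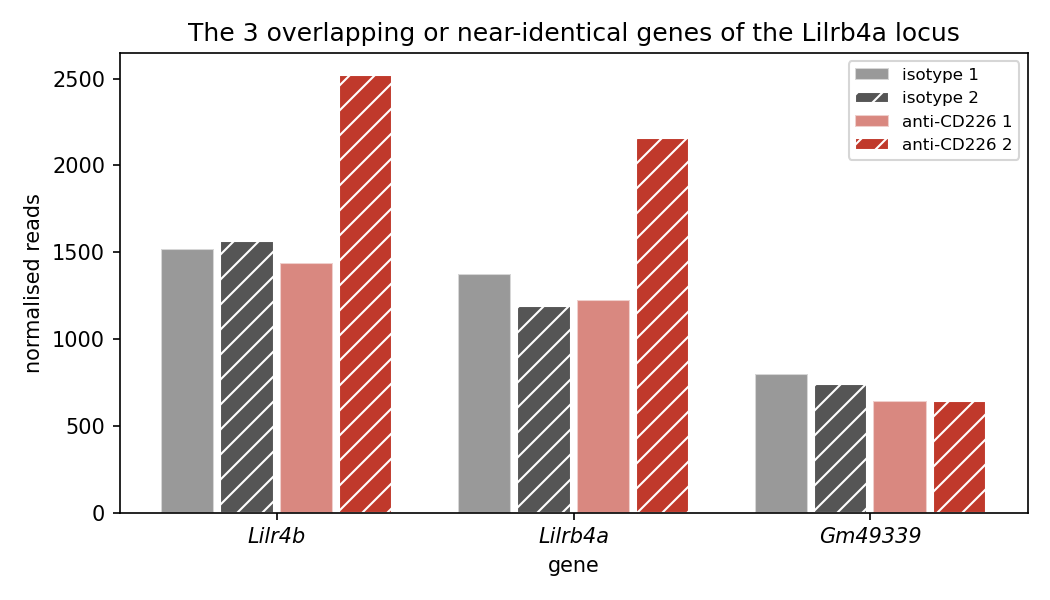
Normalised reads of Lilr4b, Lilrb4a and Gm49339 in each library, with isotype in grey, anti-CD226 in red and replicate 2 hatched; each bar is 1 library. Lilr4b and Lilrb4a are highest in anti-CD226 replicate 2, at 2521 and 2155, while Gm49339 is lower in both anti-CD226 libraries, at 645 and 643.

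Vsir, the gene of VISTA, stood at 60.8 and 71.9 (isotype) and 70.0 and 86.0 (anti-CD226). The groups overlapped, and all counting intervals overlapped too. The log2 difference, 0.23, had a standard error of 0.27, and the adjusted p in limma was 0.982. Without anti-CD226 replicate 2 the difference was 0.082, without isotype replicate 1 it was 0.11, without isotype replicate 2 it was 0.35, and without anti-CD226 replicate 1 it was 0.37. With the length trend removed it was 0.13. Vsir lies on the plus strand of chromosome 10, from 60346851 to 60372684, opposite to Cdh23, which was at or below 5.51 in every library and shares no exon base with it. Selplg, which encodes PSGL-1, a partner of VISTA, was abundant and stood between 9462 and 10530 in all 4 libraries.

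**Figure D3:**
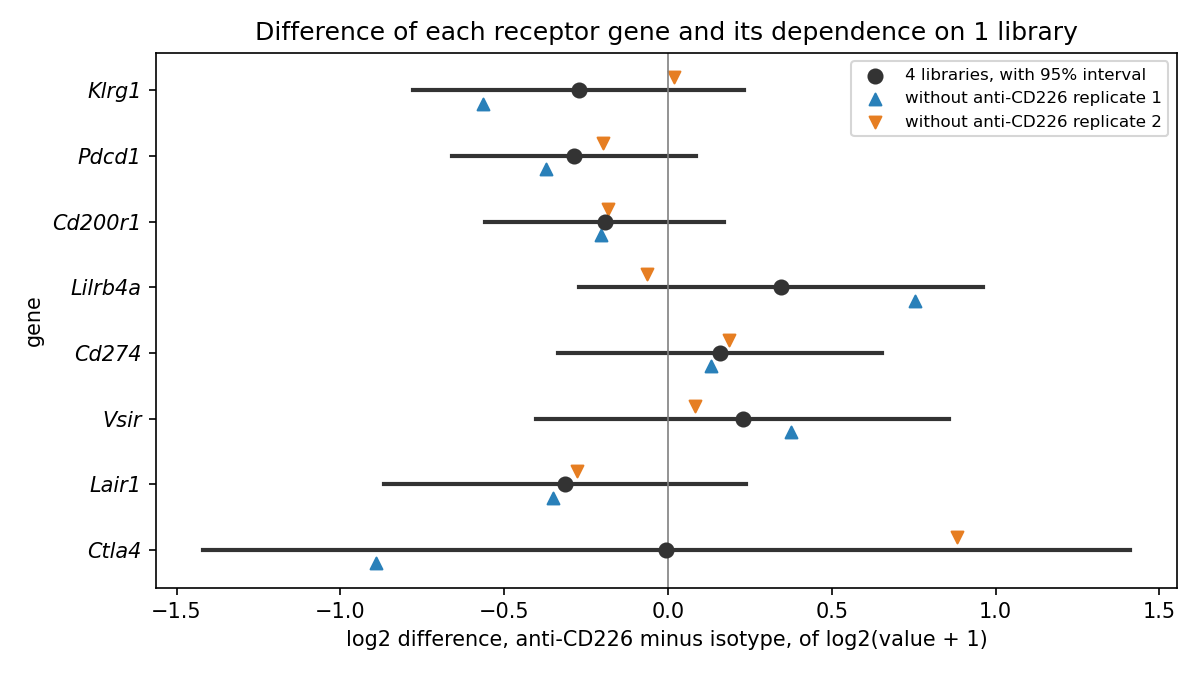
Log2 difference of each receptor gene, anti-CD226 minus isotype, with its 95% interval from limma over 4 libraries (black), and the value without anti-CD226 replicate 1 (blue) or replicate 2 (orange). All 8 intervals include 0; the orange points of Klrg1, Lilrb4a and Ctla4 lie at 0.018, -0.063 and 0.88, across 0 from the values over 4 libraries.

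The phosphatases and adaptors that these receptors recruit were also compared, and none passed the test. Of 16 such genes tested, of 21 listed, 7 had higher and 9 lower values in anti-CD226 libraries, and the median log2 difference was -0.04 beside 0.01 over all genes tested. Ptpn6, which encodes SHP-1, stood at 788 and 842 with isotype against 696 and 637 with anti-CD226. Ptpn11, the gene of SHP-2, stood at 774 and 739 against 601 and 630. Both phosphatase genes were below both isotype libraries in each anti-CD226 library, with log2 differences of -0.29 and -0.30 and a standard error of 0.17 for each (limma, adjusted p = 0.982). Dok2, which CD200R1 recruits, stood at 5705 and 5497 under isotype, compared with 4695 and 4786 under anti-CD226 (limma, log2 difference -0.24, standard error 0.15, adjusted p = 0.982). Dok1, named here after its values were seen, stood at 442 and 394 against 351 and 337. The kinase Lyn was higher, at 964 and 895 against 1108 and 1228. Inpp5d, the gene of SHIP-1, which KLRG1 recruits, also named after its values were seen, overlapped between groups, at 4662 and 3315 against 3818 and 5583. In all, 4 of the 16 genes were lower in both anti-CD226 libraries and 1 was higher, beside 13.0% and 13.8% of all genes.

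**Figure D4:**
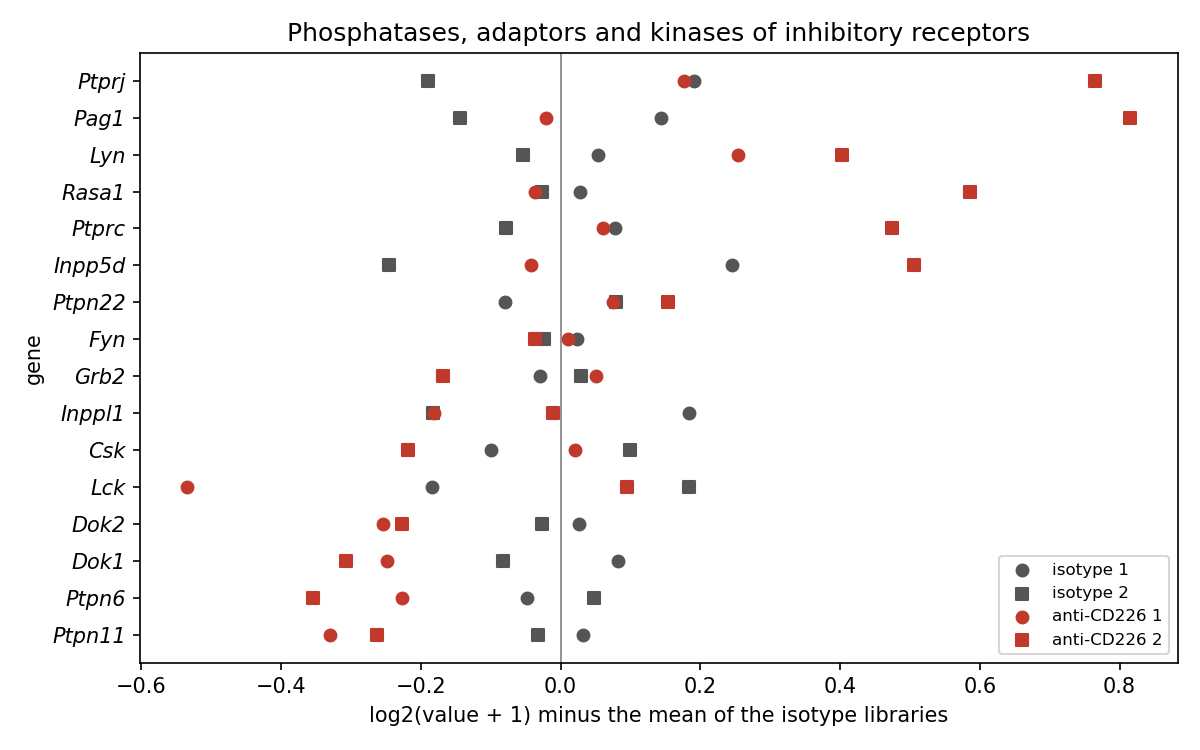
Log2(value + 1) of 16 phosphatase, adaptor and kinase genes in each library, relative to the mean of the isotype libraries; grey is isotype, red anti-CD226, circles replicate 1 and squares replicate 2. In Ptpn6, Ptpn11, Dok1 and Dok2 both red points lie left of both grey ones, and in Lyn both lie right of them.

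Other inhibitory receptors outside the CD226 family were mostly scarce. Of 35 listed genes 17 were found by name among the 17187 genes, and 11 were tested. Of these, 4 had higher and 7 lower values in anti-CD226 libraries, with a median log2 difference of -0.09. Tnfrsf14, which encodes HVEM, a ligand of BTLA, had an unadjusted p below 0.05. It stood at 38.7 and 40.9 (isotype) and 69.0 and 89.3 (anti-CD226), a log2 difference of 0.96 with a standard error of 0.29 (limma, unadjusted p = 0.012, adjusted p = 0.982). Ly9, a receptor of the SLAM family, stood at 234 and 274 with isotype against 176 and 204 with anti-CD226. Cd52, a small glycosylphosphatidylinositol-anchored protein, had 3313 and 3637 against 3334 and 2416, and Pirb, a receptor for MHC class I, was at or below 15.8 throughout. Btla itself had a mean below 10 and was not tested.

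Transcription factors known to act on checkpoint receptor genes mostly had higher mean values with anti-CD226, and none passed the test. Of 18 tested, 15 had higher and 3 lower values in anti-CD226 libraries, beside 6647 higher and 6363 lower among all genes tested. Their median log2 difference was 0.20, and 0 had an unadjusted p below 0.05. In 5 of the 18 both anti-CD226 libraries were higher and in 2 both were lower, beside 13.8% and 13.0% of all genes. The groups overlapped in the others. Tox2, a relative of the exhaustion factor TOX, stood at 3136 and 2880 under isotype, compared with 3344 and 4863 under anti-CD226. Batf, an AP-1 factor, was lower in both anti-CD226 libraries, by little in replicate 1, at 1346 and 1422 against 1331 and 886. Bcl6 was scarce and also lower in both, at 12.2 and 21.6 against 7.21 and 11.0. Hif1a stood at 11361 and 9983 against 11065 and 14107. The summed value of the 20 genes analysed was between 42349 and 46677 in isotype, 46122 in anti-CD226 replicate 1 and 57882 in replicate 2, so replicate 2 alone lay above the isotype range.

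Of 16 genes tested for the traffic and turnover of PD-1, PD-L1 and CTLA-4, 10 had higher and 6 lower values in anti-CD226 libraries, and the median log2 difference was 0.07. That list was chosen with the value of Cul3 already known. Cul3, the scaffold of the ubiquitin ligase that uses SPOP to degrade PD-L1, stood at 330 and 354 (isotype) and 1007 and 762 (anti-CD226) (limma, log2 difference 1.35, standard error 0.20, adjusted p = 0.982). It was the only gene of this list with an unadjusted p below 0.05 (limma, unadjusted p = 1.6e-04) and ranked 2nd of 13010 genes by p. Spop, its adaptor, named here after its values were seen, stood at 1655 and 1530 against 1560 and 1774. Lrba, which protects CTLA-4 from lysosomes, stood at 74.0 and 90.4 against 80.3 and 150. B4galnt1, a ganglioside synthase, stood at 2647 and 2500 against 2623 and 3378, and Cops5, which removes ubiquitin from PD-L1, at 1297 and 1380 against 1426 and 992.

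Markers of other cells that can carry these receptors were also summed in each library, as far as they were found by name among the 17187 genes. Of 20 macrophage and monocyte markers 14 were analysed, with a summed value of 8235 to 8820 in isotype and 7913 to 11887 in anti-CD226 libraries. Most of that sum was Ccr2. Without it, 13 markers summed to 308 to 320 in isotype, 609 in anti-CD226 replicate 1 and 1956 in replicate 2. Mmp12, a macrophage metalloproteinase, had 34.3 and 2.32 in isotype against 168 and 678 in anti-CD226 libraries. Ctss, a lysosomal protease, had 190 and 230 against 289 and 227. Chil3, named here after its values were seen, overlapped between groups, at 19.9 and 0 against 16.5 and 784. Chil3 and Mmp12 made up most of the sum without Ccr2 in anti-CD226 replicate 2. Mpeg1 was at 0 in both isotype libraries, and Csf1r, the receptor that defines the lineage, was at or below 2.62 in every library. Of the 9 macrophage and monocyte markers tested, 8 had higher values with anti-CD226. An unadjusted p below 0.05 in limma was reached by 5 of these, beside 2.37% of all genes tested. ILC2 identity genes, 21 of 22, summed to 234544 to 234681 in isotype and 218893 to 224407 in anti-CD226 libraries. Il5, a cytokine and the most abundant of them, stood at 95010 and 97655 in isotype against 85431 and 67864 in anti-CD226 libraries, a larger difference of means than that of the sums. Of the 19 identity genes tested, 12 had higher and 7 lower values with anti-CD226, and their median log2 difference was 0.09. Of T cell markers 10 of 15 were analysed, summing to 3488 to 3962 in isotype and 2505 to 3671 in anti-CD226 libraries, and Trac was at or below 4.64 throughout. The T cell receptor constant gene Trbc2, the most abundant of them, had 1959 and 2370 in isotype against 2125 and 1340 in anti-CD226 libraries. Mast cell and basophil markers, 9 of 13, summed to 233 to 239 in isotype and 150 to 214 in anti-CD226 libraries. Of the 6 tested, 5 had lower values with anti-CD226, 2 of them with an unadjusted p below 0.05 in limma. The other had higher values, also with an unadjusted p below 0.05 in limma. It was Gata2, named here after its values were seen, at 8.84 and 10.0 against 26.8 and 20.9. Myeloid cells express LILRB4, PD-L1, VISTA, LAIR-1 and CD200R1 and T cells PD-1 and CTLA-4, and the part of either in the values above was not tested. Natural killer (NK) cell markers, 2 of 10, summed to 192 to 306 in isotype and 129 to 243 in anti-CD226 libraries. The T cell and NK cell sums, mostly Trbc1, Trbc2 and Gzma, were, like Klrg1, lowest in anti-CD226 replicate 2. Their part in the Klrg1 value was not tested. In bulk libraries, fewer cells that carry a transcript cannot be told apart from less of it per cell.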

How the data were processed

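RNA of 4 libraries of cultured mouse lung ILC2s was measured, 2 per group. The submitters' processing notes name the build mm10 and the tools Partek 10.0, STAR 2.7.8 and, without a version, DESeq2. How reads were counted, with which annotation and whether by strand, is not given in the sources used here, so overlapping and near-identical genes may share reads. The table deposited by the authors gives a normalised signal for each of 17187 genes in each library, read here as counts divided by 1 factor per library. Between 73.5% and 75.1% of values from 0.5 to 1000 reads were whole multiples of a library's step (tolerance 0.02), so no count model was run. Of the gene columns, 169 were checked singly against the unit.

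Genes with a mean of 10 or more (13010) were tested on log2(value + 1) with limma 3.58.1 (R 4.3.3, variance trended on the mean), a scale that understates changes of low genes. The fit had 2 residual and 5.81 prior degrees of freedom. Its threshold was an adjusted p of 0.05. Lengths came from GENCODE M21 (97.5% of genes). The steps were tested on simulated data. The members and lists were chosen with earlier results of these data known. Named were the 8 members, per gene list the 4 genes ranked first by p, and Cd226. The 3 of highest mean in each cell type list were also to be named. They are printed only in part, for macrophages, T cells, NK cells and ILC2 identity. The dendritic cell, B cell and epithelial lists were summed but are not described. Others are marked, or stand as defining markers, ligands, relatives or overlapping genes. Alternatives covered the pseudocount, filter, scaling, length trend, variance model, a replicate block, each library left out and the length used.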

Additional observations from a re-analysis of the deposited data

How the results depend on the processing

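No gene passed limma's adjusted p of 0.05 under other pseudocounts, filters, scalings or variance models or with the length trend removed. The count was 20 with the replicate block and 61 with crossed pairs as the block, added after seeing the data because same-numbered libraries deviated in opposite directions (r = -0.24 across genes); none of the 8 receptors was called under either. Leaving out 1 library gave between 12 and 1633 calls, the most without anti-CD226 replicate 1, the fewest without isotype replicate 1. The cause was not tested. Pdcd1, Cd200r1, Lair1, Cd274 and Vsir kept their sign in all 16 alternatives and were called in 0, with Vsir between 0.082 and 0.37. Ctla4 turned sign with a pseudocount of 5 (0.032), with the length trend removed (0.075), and ranged from -0.89 to 0.88 with a library left out (0.016 without isotype replicate 2). With a library left out, Klrg1 ranged from -0.56 to 0.018 and Lilrb4a from -0.063 to 0.75. The filter of 50 left Ctla4 out. The order of levels per kb was the same under 3 of 4 alternatives, 1 of them added later, and by coding length Lair1 stood above Vsir, with 6 of 8 places unchanged. Few reads limit Ctla4, Lair1, Vsir and Cd274.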
